A study of Mus musculus with 22 samples.

Results

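The earlier tumors of each genotype in the time course were compared here gene by gene, wild-type (WT) tumors of day 23 against tumors of day 13 from mice that lack RAG1. MC38, a chemically induced colon carcinoma line of C57BL/6 mice, had been injected under the skin of the left flank of female mice aged 8 to 12 weeks, at 50000 cells a mouse. The WT hosts were C57BL/6N, and the RAG1-/- hosts were B6.129S7-Rag1tm1Mom/J. Each group held 3 tumors, and the values come from a piece of each tumor, since tumors had been divided at random into 3 pieces. Of 46882 genes listed, 14746 averaged 5 normalized counts or more in the 12 tumors of the course and were tested. The other 6 tumors were WT of day 46 and RAG1-/- of day 23, 3 each, and the series has 22 samples in all. Genotype, host substrain and day all changed together between the early groups, so their parts in a difference cannot be told apart within this comparison.

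RAG1 and RAG2 cut and rejoin antigen receptor genes, and a mouse without RAG1 makes no mature T or B cells while its NK cells and myeloid cells remain. Activated T cells and NK cells secrete interferon gamma, which acts on nearly every cell type. The response includes chemokines such as CXCL9 that draw in more T cells, GTPases that defend cells against intracellular parasites, and the machinery that shows peptides on MHC molecules. The question for these tumors was what the RNA of the tumor mass looks like with and without adaptive immunity, at the earlier time point of each genotype.

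QuantSeq libraries, which read each transcript near its 3′ end, held 7312850 to 14782535 reads on genes in the 6 early tumors. The value of 3 reads, taken as the floor, lay between 2.21 and 4.75 normalized counts, which covers counting error only. Pairs of tumors of the same group correlated at 0.954 to 0.970 across genes on the log scale, and pairs from different groups at 0.938 to 0.962, which describes genes and not replicates. Mitochondrial genes took 5.58% to 6.30% of the counts in RAG1-/- tumors and 6.12% to 10.2% in WT tumors. No source says whether tumors of a group were handled separately after dissection.

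The labels were checked against lymphocyte genes first. Of 22 genes of the T cell receptor complex and its coreceptors, 9 had no read in any tumor labelled RAG1-/- of day 13, among them Cd3e, Cd3g, Trac, Cd8a and Cd8b1. Thy1, which other cells also express, made up most of what was left of the list there, at 96.3, 73.4 and 145 normalized counts. Of 24 B cell and immunoglobulin genes 10 had no read in that group, including Igkc. The whole B cell list still summed to 75.9, 166 and 93.4 normalized counts there, against 556, 807 and 179 in WT tumors. Rag1 itself had no read in WT tumors, while the tumors labelled RAG1-/- held 1.07, 1.11 and 11.4 normalized counts, the third of them above the floor. A 3′ tag of Rag1 need not lie in the deleted part, so these reads do not check the deletion. Epithelial genes were nearly absent from the tumors, with 15 of them summing to 28.5 to 97.2 normalized counts, and also from the MC38 cells themselves, at 13.7 and 15.6, against 6141 and 7200 in skin. Only 2 of the 15 passed the expression filter, and neither was called.

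In WT tumors of day 23, 36 genes were higher than in RAG1-/- tumors of day 13 and 3 were lower at an adjusted p under 0.05 (limma, Benjamini-Hochberg). That is 0.244% and 0.0203% of the genes tested. At these shares a list as short as those below would seldom hold a call, so a list without calls says little by itself. Of the 36 higher genes 27 belonged to a gene list, and 18 of these were interferon gamma-induced or MHC genes. The interferon gamma, MHC class I and MHC class II lists held 27, 19 and 10 of the 14746 tested genes. Lists were chosen with earlier results of these data known, and membership was not tested. All 39 called genes had groups that did not overlap, where 9.68% of all tested genes had every WT tumor above every RAG1-/- tumor and 8.98% had every WT tumor below. Over all tested genes the median log2 fold change was -0.00448, a centre largely set by the size factors that the deposited values were divided by. An unadjusted p under 0.05 was reached by 1428 genes. The call counts depended on every tumor: leaving out any 1 of the 6 left 13 to 20 genes higher and 1 to 5 lower, each of the 6 moving the higher count by more than 1.5 times. Igkc, Cxcl9 and Iigp1 were called in all 18 alternative fits.

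**Figure D1:**
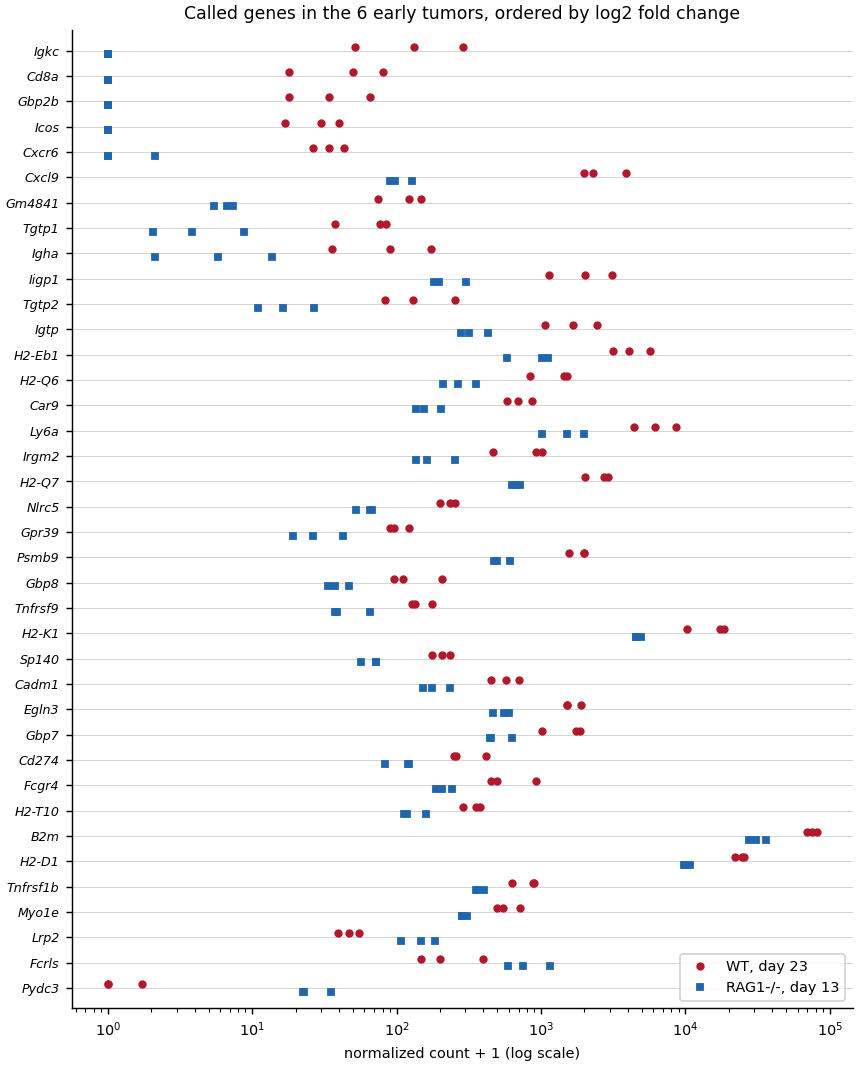
Normalized count plus 1 on a log axis for 38 of the 39 called genes, ordered by log2 fold change, with 3 WT tumors of day 23 (red circles) and 3 RAG1-/- tumors of day 13 (blue squares). The groups separate in every row, and Igkc, Cd8a, Gbp2b and Icos lie at 0 in all 3 RAG1-/- tumors.

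Among called genes Igkc and Cd8a had the largest log2 fold changes. Igkc, the constant region of the immunoglobulin kappa chain (chr6:70726435-70726966, mm10), had 131, 287 and 50.7 normalized counts in WT tumors and no read in RAG1-/- tumors. Its log2 fold change was 6.97 ± 0.62 (SE, adjusted p = 0.000119), and WT tumors were at least 49.8-fold higher when 3 reads per library are taken for the empty group. Igha, the IgA heavy chain constant region, was at 88.5, 173 and 34.9 in WT tumors and at 12.8, 1.11 and 4.76 in RAG1-/- tumors. These were 2 of the 8 tested genes of the B cell list, 25% against 0.244% of all genes called higher. The median log2 fold change of that list was 3.29. The 16 members below the expression filter were not tested, and Jchain and Ighg2c, next by p, did not pass (adjusted p = 0.106 and 0.147). Of the other tested members, Iglc1 had a log2 fold change of 2.81, Pou2af1 0.72, Ighm 0.25 and Cd79b -0.11, and none was called. In both Igkc and Igha the third WT tumor was lowest. Only 1 gene of this list stayed called when RAG1-/- tumor 2 or 3 or WT tumor 1 or 2 was left out. Immunoglobulin constant regions are similar in sequence, and a multi-mapping read was placed by its primary alignment alone, so the split between them is uncertain.

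Cd8a, the alpha chain of the CD8 coreceptor (chr6:71373427-71379173), was called with a log2 fold change of 5.38 ± 0.77 (adjusted p = 0.00467). WT tumors held 79.7, 17.0 and 49.1 normalized counts and RAG1-/- tumors no read, which is at least 15.5-fold higher. It was the only called gene among 11 tested members of the T cell receptor list, which had a median log2 fold change of 3.56. Of the 11, 9 had a positive sign, while Cd4 (-0.43) and Thy1 (-0.044) had a negative one. Cd8b1, which pairs with Cd8a, stood at 33.9, 8.52 and 39.6 in WT tumors and without a read in the others (adjusted p = 0.0632). Cd3e was at 7.92 to 17.0 in WT tumors (adjusted p = 0.0878). DESeq2 on recovered reads called 7 members of this list.

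Among 22 genes of T cell costimulation, checkpoints and regulatory T cells, 13 were tested and 4 were called higher, 30.8% against 0.244% of all genes. The median log2 fold change was 1.49. It was positive for 10 members and negative for 3, Cd96 (-0.62), Ikzf2 (-0.57) and Il2ra (-0.12). Icos, a costimulatory receptor of activated T cells, had 39.1, 29.0 and 15.8 normalized counts in WT tumors and no read in RAG1-/- tumors, at least 8.93-fold higher (adjusted p = 0.0148). Cxcr6, a chemokine receptor of T cells that settle in tissue, had 108 reads in WT tumors and 1 read in RAG1-/- tumors, a ratio of 98.6 with a 95% counting interval from 17.3 to 3929. Tnfrsf9, which encodes the costimulatory receptor 4-1BB, held 128, 134 and 176 in WT tumors and 37.4, 36.7 and 64.8 in RAG1-/- tumors (log2 fold change 1.67 ± 0.29, adjusted p = 0.0224). Unlike Icos and Cxcr6 it was read in all 3 RAG1-/- tumors. Cd274, which encodes PD-L1 (chr19:29367455-29388095), was 2.86-fold higher, at 259, 251 and 414 against 122, 119 and 81.9 (adjusted p = 0.0456). Cd274 was at 60.7 and 67.5 in MC38 cells. Of the alternative fits with a value, Cd274 was called in 6 of 18 and Cxcr6 in 6 of 17. Each single tumor left out lost calls in this list, down to 0 or 1 of the 4.

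Other checkpoint genes did not pass. Pdcd1, the receptor for PD-L1, was at 30.2, 11.9 and 12.7 in WT tumors and 2.14, 3.34 and 1.91 in RAG1-/- tumors, without overlap (adjusted p = 0.303). Ctla4, an inhibitory receptor of T cells, fell below the filter, with 10.3, 17.9 and 3.17 against no read, and its two-sided exact permutation p was 0.1, the smallest that 3 against 3 allows. Havcr2, which encodes TIM-3, was at 125 to 176 against 103 to 132, and the groups overlapped. Lag3 was at or under the floor in all 6 tumors.

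NK cell and cytotoxic genes were read in both groups. None of 23 tested members of the NK cell and cytotoxic effector list was called, with a median log2 fold change of 0.65, and their summed level overlapped between groups, at 6553 to 9299 in WT and 6793 to 7391 in RAG1-/- tumors. The list also summed to 3942 and 4654 in MC38 cells, where 25 of its 35 members had no read, so the sum is not that of NK or T cells alone. In 8 of the 23 every WT tumor lay above every RAG1-/- tumor, against 9.68% of all tested genes, and in 0 below. The log2 fold change was positive for 16 of the 23 and negative for 7, lowest for Klra7 (-1.15) and Klra1 (-1.06). Ifng, the gene of interferon gamma, was at 22.9, 3.41 and 9.51 in WT tumors and had no read in RAG1-/- tumors, at least 3.81-fold higher (log2 fold change 3.37 ± 0.98, adjusted p = 0.246). Klrc1, an inhibitory receptor of NK and CD8 T cells, stood at 46.5, 35.0 and 22.2 against 2.14, 4.45 and 4.76, and Nkg7, a granule protein, at 138, 51.1 and 66.6 against 8.56, 6.67 and 23.8. Neither passed (adjusted p = 0.180 and 0.217). Gzmb, a granule protease, was at 54.6 to 89.2 in WT tumors and at 5.56 to 36.4 in RAG1-/- tumors (adjusted p = 0.430). Gzma overlapped between groups, and Prf1, which encodes perforin, was under the floor in every tumor. Ccl5, a chemokine of T cells and other cells, was at 971 to 1474 against 684 to 813 (log2 fold change 0.65 ± 0.29, adjusted p = 0.494).

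Interferon gamma-induced genes were the list with the most calls. Of 27 tested members 11 were higher and none lower, which is 40.7% against 0.244% of all genes, and the median log2 fold change was 1.78. A positive sign was seen for 26 of the 27. Cxcl9, the chemokine that binds CXCR3 on activated T cells (chr5:92321347-92328079), had 3899, 2282 and 1982 normalized counts in WT tumors and 127, 96.7 and 88.6 in RAG1-/- tumors. The fold of means was 26.1 (log2 fold change 4.65 ± 0.44, adjusted p = 0.000127), and no read of it was found in MC38 cells. Iigp1, a GTPase of the immunity-related family, was 9.28-fold higher, at 3118, 1135 and 2023 against 300, 197 and 180 (adjusted p = 0.000516). In both genes the first WT tumor was highest. In bulk RNA, more cells of a type cannot be told apart from more RNA per cell.

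The remaining called members fell into related groups. Among guanylate-binding proteins, Gbp2b rose from no read in RAG1-/- tumors to 64.2, 17.0 and 33.3 in WT tumors, at least 12.2-fold. It was called in 7 of the 17 alternative fits that gave it a value. Gbp8 was higher by 1.74 ± 0.33 and Gbp7 by 1.57 ± 0.24 on the log2 scale. Of the immunity-related GTPases, Igtp was higher by 2.28 ± 0.33 and Irgm2 by 2.09 ± 0.34, and their gene bodies overlap on chromosome 11 while the last 500 exonic bases of Irgm2, where a 3′ tag falls, overlap no other gene (0%). Tgtp1 and Tgtp2, whose gene name reads T cell-specific GTPase, were higher by 3.93 ± 0.63 and 3.05 ± 0.50. They are near-identical copies, so their shares are uncertain. Despite the name, the RAG1-/- tumors held 11 reads of Tgtp1 and 49 of Tgtp2. Nlrc5, the transactivator of MHC class I genes, was at 253, 199 and 235 against 64.2, 51.1 and 66.7 (log2 fold change 1.90 ± 0.26, adjusted p = 0.00347). Gm4841, a further GTPase gene on no list, was 20.6-fold higher. Cxcl10, a sister chemokine of Cxcl9, was not called, at 1560 to 3319 against 1346 to 2393. Without the third RAG1-/- tumor 4 members of the list were called, and without the second 5, without the first WT tumor 4 and without the third WT tumor 4.

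The upstream windows of these genes are shown because the interferon response is read out from short elements in them. Promoter windows of 7 of the 11 called members were searched, taken from RefSeq (GRCm38.p6), and each runs from 250 bases before to 50 after the start. The GAS element was searched as TTCNNNGAA and the ISRE by its core GAAANNGAA, both on either strand. GAS matches were in 8.30% of 32851 windows and ISRE matches in 8.56%, and 15.8% held either. All 7 windows held at least 1 match. The 4 with the largest fold changes are printed 5′ to 3′ on the gene's strand, from base -220 to -21 before the start, with matches in capitals.
Gbp2b, chr3:142594627-142594826, plus strand: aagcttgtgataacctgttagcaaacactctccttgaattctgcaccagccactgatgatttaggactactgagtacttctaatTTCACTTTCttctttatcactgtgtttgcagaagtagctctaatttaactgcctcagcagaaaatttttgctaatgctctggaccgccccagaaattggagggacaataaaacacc
Cxcl9, chr5:92328100-92328299, minus strand: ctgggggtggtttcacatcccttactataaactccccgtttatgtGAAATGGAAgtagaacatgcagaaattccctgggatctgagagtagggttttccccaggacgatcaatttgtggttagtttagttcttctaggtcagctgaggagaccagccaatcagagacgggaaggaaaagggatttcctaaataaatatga
Tgtp1, chr11:48992267-48992466, minus strand: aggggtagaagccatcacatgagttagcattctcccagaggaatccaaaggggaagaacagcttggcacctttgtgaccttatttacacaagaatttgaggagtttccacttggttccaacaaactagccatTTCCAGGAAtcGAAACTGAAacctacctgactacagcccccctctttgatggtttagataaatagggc
Tgtp2, chr11:49064233-49064432, minus strand: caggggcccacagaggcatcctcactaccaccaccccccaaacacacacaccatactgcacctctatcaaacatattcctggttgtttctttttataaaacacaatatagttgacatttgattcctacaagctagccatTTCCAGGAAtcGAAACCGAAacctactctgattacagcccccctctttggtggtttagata
The Gbp2b and Cxcl9 windows lie outside annotated genes. The Tgtp1 window lies in an intron of Tgtp1 and of Olfr56, and the Tgtp2 window in an intron of Olfr56. Gbp2b and Cxcl9 each hold a single ISRE core, on the opposite strand in Gbp2b. In Tgtp1 and Tgtp2 a GAS match is followed after 2 bases by an ISRE core. The same arrangement, noticed in these windows and then counted, is in 4 of the 7 windows, those of Tgtp1, Tgtp2, Igtp and Irgm2, and in 8 of all 32851 (0.0244%). Those 8 include these 4, which all lie on chromosome 11, and Tgtp1 and Tgtp2 are near-identical copies. The 4 are therefore not separate occurrences, and enrichment was not tested. A match is a run of letters and no measured binding.

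Genes better known as targets of type I interferon gave no call. None of 29 tested members passed, although 27 had a positive log2 fold change, and the median was 0.36. Isg20, an exonuclease, had the lowest p, at 160, 228 and 196 against 77.0, 116 and 118 (adjusted p = 0.237). Cmpk2, next in p, overlapped between groups at 339 to 925 against 250 to 508.

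In the MHC class I list, 6 of 19 tested members were called higher, 31.6% against 0.244% of all genes. All 19 had a positive sign and the median log2 fold change was 0.905. B2m, the light chain shared by all class I molecules (chr2:122147686-122153083), had 70068, 75287 and 81701 normalized counts in WT tumors and 27619, 31023 and 36312 in RAG1-/- tumors. The change was 2.39-fold (adjusted p = 0.0148). H2-K1, a classical class I heavy chain, was 3.28-fold higher, at 10210, 18381 and 17295 against 4927, 4568 and 4516 (adjusted p = 0.00281). The first WT tumor was lowest for B2m and for H2-K1, in contrast to Cxcl9. H2-D1 was 2.37-fold higher. The nonclassical H2-Q7 and H2-Q6 were 3.81-fold and 4.59-fold higher, and Psmb9, a subunit of the immunoproteasome that cuts peptides for class I, was 3.51-fold higher. Class I heavy chains are close copies of each other, so reads can be split among them. Without the first RAG1-/- tumor, the second WT tumor or the third WT tumor 3 of the 6 calls were left. H2-T10, on no list, was 2.64-fold higher, and 35.8% of its last 500 exonic bases overlap BC023719 on the other strand, which cannot be told apart because the strand setting is not given in the sources used here. Tap1, which carries peptides to class I molecules, was at 1386 to 1489 against 623 to 704 and stayed just outside (adjusted p = 0.0618).

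Of 10 tested genes of MHC class II presentation 1 was called higher, 10% against 0.244% of all genes, and the median log2 fold change was 1.09. H2-Eb1, a class II beta chain of antigen-presenting cells, stood at 5659, 4093 and 3156 in WT tumors and 579, 1023 and 1114 in RAG1-/- tumors, 4.75-fold higher (adjusted p = 0.0173), with no read in MC38 cells. Cd74, the class II chaperone, was at 2364 to 3859 against 401 to 879, without overlap (adjusted p = 0.107). The call of H2-Eb1 was lost without any 1 of 5 tumors and held only without the third WT tumor.

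**Figure D2:**
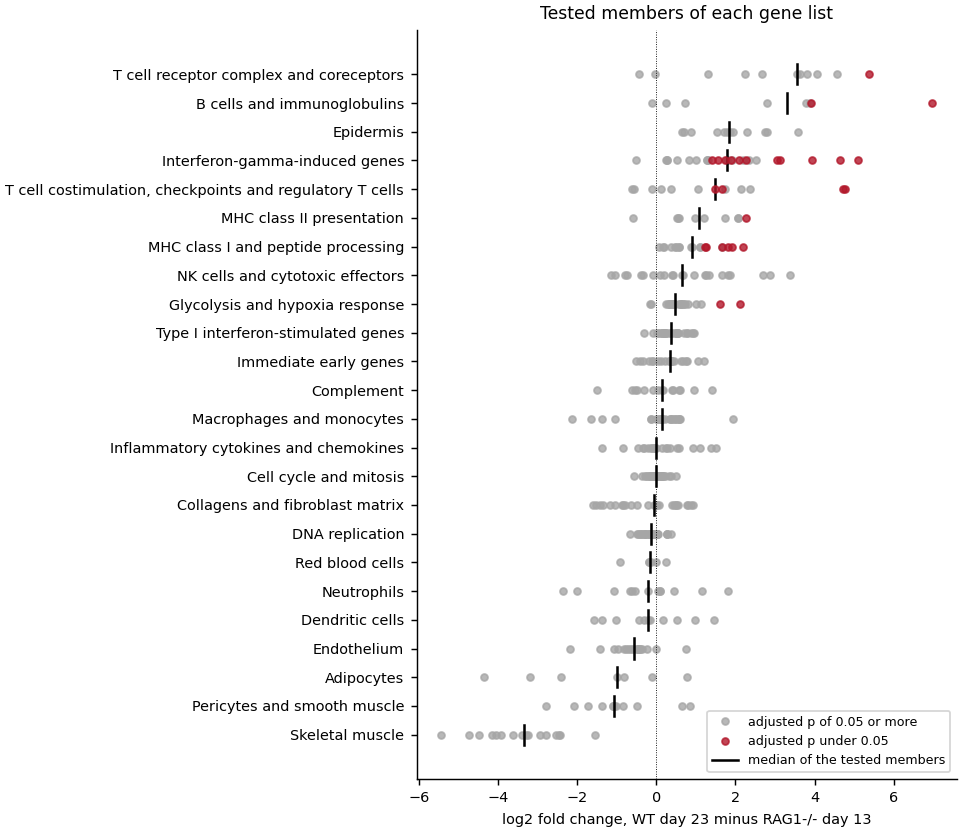
Log2 fold change of every tested member (points) of the 24 gene lists with at least 6 tested members, WT day 23 minus RAG1-/- day 13, with the median of each list as a black bar and called genes in red. Interferon gamma-induced genes carry 11 red points and type I interferon genes none, and skeletal muscle genes lie lowest, with a median of -3.35.

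Glycolysis and hypoxia genes gave 2 calls among 26 tested, both higher, which is 7.69% against 0.244% of all genes. Their median log2 fold change was 0.467. Car9, carbonic anhydrase IX, a surface enzyme that is a standard target of hypoxia-inducible factor (chr4:43506966-43513729), had 864, 696 and 580 normalized counts against 154, 203 and 136. The fold of means was 4.34 (log2 fold change 2.11 ± 0.28, adjusted p = 0.00285). Egln3, a prolyl hydroxylase that marks the same factor for decay, was 3.03-fold higher, at 1508, 1521 and 1893 against 555, 604 and 464 (adjusted p = 0.0267). Both were lower in the cultured MC38 cells than in all 6 tumors, with Car9 at 6.84 and 2.93 and Egln3 at 159 and 233. Bnip3, a mitochondrial protein of the hypoxia response, and P4ha1, a collagen prolyl hydroxylase, had groups that did not overlap (adjusted p = 0.103 and 0.111). Leaving out any 1 of the 6 tumors left 1 of the 2 calls.

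Besides Gm4841 and H2-T10, 7 higher genes were on no list. Fcgr4, an activating Fc receptor of macrophages, was 2.95-fold higher, at 928, 448 and 494 against 187, 205 and 241, and had no read in MC38 cells. Tnfrsf1b, the second receptor for TNF, was 2.14-fold higher. Ly6a, which encodes the surface protein Sca-1 and is interferon-responsive, was 4.26-fold higher. Sp140, a nuclear body protein of immune cells, was 3.10-fold higher, the adhesion molecule Cadm1 3.06-fold, the zinc-sensing receptor Gpr39 3.59-fold and the motor protein Myo1e 2.01-fold. Of the 18 alternative fits, Sp140 was called in 9, Cadm1 in 8, H2-T10 in 5 and Gpr39, at an adjusted p of 0.0474, in 3. In Gpr39, 41.8% of the last 500 exonic bases overlap Lypd1 on the other strand.

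Only 3 genes were lower in WT tumors. Pydc3, of the interferon-inducible PYHIN family and a synonym of Ifi208 in RefSeq (chr1:173673628-173698393, GRCm38.p6), had 1 read in the 3 WT tumors and 74 reads in the 3 RAG1-/- tumors. That ratio is 81.1, with a 95% counting interval from 14.1 to 3245 (log2 fold change -4.45 ± 0.60, adjusted p = 0.00318). PYHIN genes are close copies of each other. Fcrls, an Fc receptor-like gene of macrophages, was 3.36-fold lower, at 396, 199 and 146 against 595, 752 and 1148 (adjusted p = 0.0337). It was called in 8 of the 18 alternative fits. Lrp2, the endocytic receptor megalin, was 3.18-fold lower, at 38.4, 53.7 and 46.0 against 107, 185 and 147 (adjusted p = 0.0267). Lrp2 was at 281 and 212 in MC38 cells, above all 6 tumors, whereas Fcrls and Pydc3 had no read there.

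No macrophage gene was called, where 0.244% of all tested genes were called higher and 0.0203% lower. Of 25 members, all tested, 18 had a positive sign, with a median log2 fold change of 0.14. Nos2, the inducible nitric oxide synthase of interferon-activated macrophages, was at 161, 194 and 402 against 62.0, 48.9 and 70.5 (adjusted p = 0.134). Mrc1, the mannose receptor, lay the other way at 406, 276 and 136 against 673, 430 and 914, as did the folate receptor Folr2 at 11.8, 6.82 and 19.0 against 49.2, 38.9 and 82.9. In these 3 genes the groups did not overlap, but none passed (adjusted p = 0.296 for Mrc1 and 0.303 for Folr2). Over the 25 members, 5 had every WT tumor above every RAG1-/- tumor and 3 had every WT tumor below. The shares of all tested genes were 9.68% and 8.98%. No member was called among 13 tested neutrophil genes (median -0.199), 11 dendritic cell genes (median -0.218), 21 inflammatory cytokines and chemokines (median 0.00261), 15 complement genes (median 0.152) or 6 red blood cell genes (median -0.157).

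No gene of the proliferation lists was called, where 0.244% of all tested genes were called higher and 0.0203% lower. The absence of calls is near these shares and does not set proliferation genes apart. None of 30 cell cycle genes was called, with log2 fold changes from -0.56 to 0.493. None of 32 DNA replication genes was called, 23 of them with a negative sign and a median of -0.135. In 13 of the 32 every WT tumor lay below every RAG1-/- tumor, against 8.98% of all tested genes, and in 1 above. Their summed level did not overlap, at 34306 to 35730 normalized counts in WT and 37825 to 40619 in RAG1-/- tumors. Mcm5, a subunit of the replicative helicase, had the lowest p of these, at 1709, 1866 and 1567 against 2602, 2273 and 2337 (adjusted p = 0.336). Collagen and fibroblast genes (26 tested, median -0.0484) and immediate early genes (21 tested, median 0.337) had no call either.

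Markers of tissue around the tumor differed strongly between tumors. The 16 skeletal muscle genes summed to 14140, 587 and 15044 normalized counts in RAG1-/- tumors and to 1471, 113 and 952 in WT tumors, so RAG1-/- tumors 1 and 3 stood above the rest. None of the 16 was called. Their median log2 fold change was -3.35, and Ckm, muscle creatine kinase, ranged from 36.7 to 757 in RAG1-/- tumors. The same 2 tumors held the most adipocyte, endothelial and smooth muscle counts, and no gene of these 3 lists was called (7, 19 and 12 tested, medians -0.997, -0.564 and -1.07). Epidermal genes summed highest in the second WT tumor, at 2481 against 434 to 856 in the other 5, with none of 12 called and a median of 1.83. Krtdap, a keratinocyte protein, was at 5.90, 241 and 0 in WT tumors. With the second RAG1-/- tumor as the only one of its group, 3 genes were called higher and 0 lower, 2 of them interferon gamma-induced. All 39 genes kept their direction in that fit, and the log2 fold change of H2-K1 was 1.70 there and 1.67 with all tumors. Without the second WT tumor 20 genes were higher, 9 of them interferon gamma-induced.

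**Figure D3:**
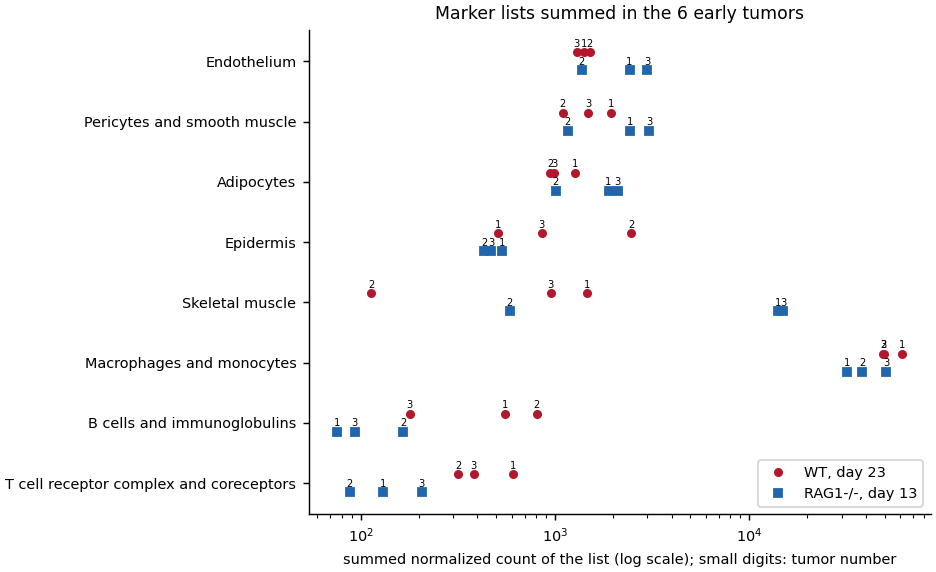
Summed normalized counts of 8 marker lists on a log axis in the 3 WT tumors of day 23 (red circles) and the 3 RAG1-/- tumors of day 13 (blue squares), with the tumor number beside each point. RAG1-/- tumors 1 and 3 lie at 14140 and 15044 for skeletal muscle, and WT tumor 2 at 2481 for epidermis.

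The RAG1-/- tumors of day 23 let each early difference be set out as a genotype difference on the same day plus a difference between days within RAG1-/- tumors. These parts share tumors with the early comparison and with each other, so for single genes only values are given. Over all tested genes, the same-day contrast called 34 higher and 7 lower, and the between-day contrast called 0 and 0 (limma, adjusted p under 0.05). For 32 of the 39 called genes the same-day part was the larger, a split that was not counted over all tested genes. Nlrc5 is an example, with a log2 fold change of 1.56 ± 0.26 (SE) on the same day and 0.34 ± 0.26 between days. Cxcl9 was 5.54 ± 0.44 higher on the same day, and its part between days was -0.89 ± 0.44. Pydc3 stood at 19.2 to 41.9 in the RAG1-/- tumors of day 23, and its same-day difference was -4.72 ± 0.60.

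For 7 genes the part between days was the larger: Car9, Tnfrsf9, Gpr39, Egln3, Myo1e, H2-K1 and B2m. None of these genes passed in the between-day contrast. Car9 was at 338 to 785 in RAG1-/- tumors of day 23, a range that holds 2 of the WT values of day 23, and its parts were 0.29 ± 0.28 on the same day and 1.82 ± 0.28 between days. Myo1e gave 0.14 ± 0.18 and 0.84 ± 0.18. Tnfrsf9 reached 93.6 to 112 in RAG1-/- tumors of day 23, below all 3 WT tumors of that day, with parts of 0.45 ± 0.29 and 1.22 ± 0.29. For H2-K1 the parts were alike, at 0.83 ± 0.21 and 0.84 ± 0.21. Over lists, the medians of the same-day and between-day parts were 1.52 and 0.0227 for interferon gamma-induced genes, and 0.0495 and 0.475 for glycolysis and hypoxia genes, beside 0.0073 and -0.0118 for all tested genes.

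**Figure D4:**
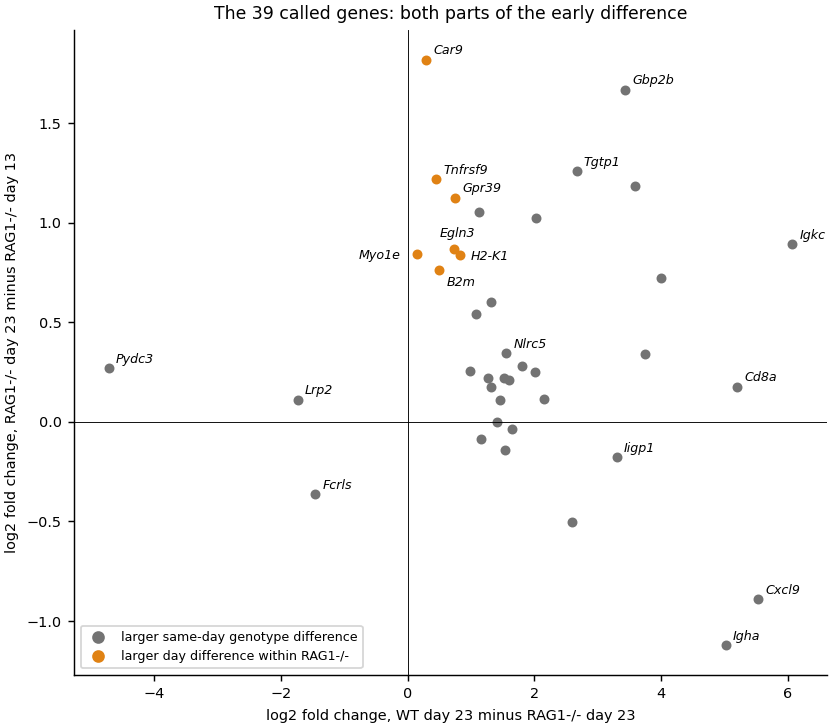
Log2 fold change of the 39 called genes between WT and RAG1-/- tumors of day 23 (x axis) and between RAG1-/- tumors of day 23 and day 13 (y axis), which sum to the early difference and share the RAG1-/- tumors of day 23. Orange points are the 7 genes whose y value is larger in size, with Car9 uppermost at 1.82.

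Whether the early difference differed from the later one, WT day 46 against RAG1-/- day 23, was tested as the difference of both, which share no tumor. No gene passed (limma, 0% of 14746, with 1279 genes at an unadjusted p under 0.05). edgeR on recovered reads called none, while DESeq2 on the same reads called 36 higher and 22 lower. Car9, singled out after its values were seen, had the lowest DESeq2 p. Its log2 fold change was -0.33 in the later pair, a difference of -2.44 from the early value (limma, adjusted p = 0.148). For Cxcl9 the later log2 fold change was 4.80, and the difference from the early value was 0.16 (adjusted p = 0.969). The median of interferon gamma-induced genes was 0.812 in the later pair and 1.78 in the early one, and that of MHC class I genes 0.549 and 0.905.

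**Figure D5:**
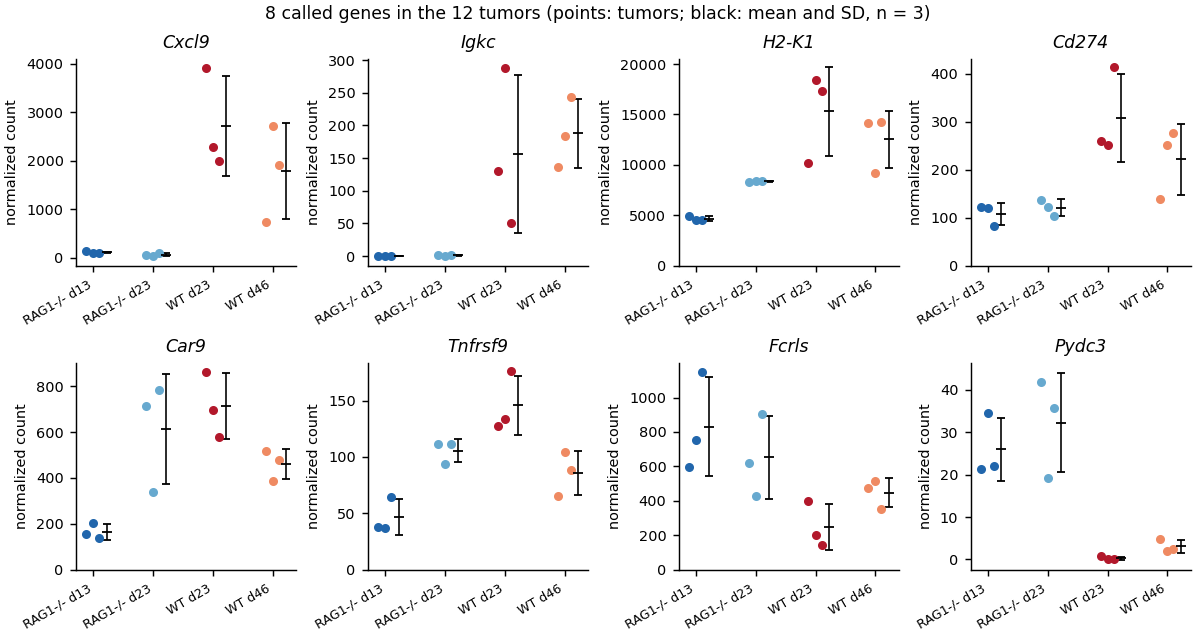
Normalized counts of 8 called genes in all 12 tumors, in RAG1-/- tumors of day 13 and day 23 and WT tumors of day 23 and day 46, with points for tumors and the mean ± SD (n = 3) in black. Cxcl9, Igkc and Cd274 are higher in all 6 WT tumors than in all 6 RAG1-/- tumors, Car9 is higher in all 3 RAG1-/- tumors of day 23 than in those of day 13, and Pydc3 stays at 19.2 to 41.9 in RAG1-/- tumors of day 23 against 2.01 to 4.89 in WT tumors of day 46.

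Values that bear on host differences outside the RAG1 change are given here, although they cannot decide whether such differences exist. Of 36 tested genes within 5 Mb of Rag1 on chromosome 2 none was called, with a median log2 fold change of -0.0328 and a lowest adjusted p of 0.546. Of all tested genes 0.244% were called higher and 0.0203% lower. No call among 36 is near those shares and does not decide whether the hosts differ there. Nnt, which is disrupted in some C57BL/6 substrains, was at 618, 490 and 545 in WT and 556, 540 and 678 in RAG1-/- tumors, and at 830 and 836 in the MC38 cells themselves (log2 fold change -0.10 ± 0.18). Since MC38 cells hold Nnt reads of their own, the tumor values do not check the host substrain.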

How the data were processed

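RNA of tumor pieces was prepared as QuantSeq 3′ libraries and sequenced on an Ion Proton. The authors trimmed reads with Cutadapt and Trimmomatic, dropped those under 22 nucleotides, aligned them to mm10 with STAR and the rest with Bowtie2, kept the primary alignment where a read mapped to several places, took out ribosomal RNA and counted with HTSeq. The deposited signal is this count divided by DESeq2 size factors. The annotation, strand setting and versions are not given in the sources used here. A second table was not used, since its 6 columns match no label.

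Dividing each library by its lowest value above 0 gave whole reads for 100% of its values (tolerance 0.01 reads). The logarithm, log2(normalized count + 1), was fitted by limma 3.58.1 (R 4.3.3) with a trend in the spread, in 1 fit of 12 tumors and 4 groups, over genes averaging 5 or more. Tests were two-sided, adjusted by Benjamini-Hochberg, and called under 0.05. Fold changes on this scale understate those of low genes. DESeq2 1.42.0 and edgeR 4.0.16 were run on recovered reads as alternatives. The other alternatives were the 6 early tumors alone, pseudocounts of 0.1 and 5, no filter, a mean of at least 20, upper-quartile or total scaling, a constant spread, a block for the replicate number, each tumor left out and, chosen after seeing the data, the second RAG1-/- tumor alone. In data simulated for the early comparison (14746 genes, 200 changed), limma recovered 40% of genes changed 2-fold, 88% at 4-fold and 98% at 8-fold, and called 8 unchanged genes. The changed genes were drawn only from those averaging at least 20, so recovery of lower genes was not simulated.

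Chi-square per degree of freedom between the reads of tumors of 1 group was 12.6 to 45.8, so none was a copy of another. Where nothing says that tumors were processed apart, p-values measure the spread between these samples. Named genes were the called genes with the largest changes, the 4 list members with the lowest p and every called member, and genes fixed beforehand such as Rag1, Nnt and Ctla4. The called genes outside this rule (Ly6a, Fcgr4, Sp140, Myo1e, Tnfrsf1b, Cadm1, H2-T10 and Gpr39) and Cxcl10, Tap1, Thy1 and Cd3g were named after their values were seen. So were Iglc1, Pou2af1, Ighm, Cd79b, Cd4, Cd96, Ikzf2, Il2ra, Klra1, Klra7, Acta1, Mylpf and Tnnt3. One called gene is not reported here by name. The comparison, gene lists and rule were chosen with earlier results of these data known. Positions are from GENCODE M21 (GRCm38, the same build as mm10), which matched 44145 of 46882 symbols.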

Additional observations from a re-analysis of the deposited data

How the results depend on the processing

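The early comparison kept the direction of all 39 called genes in every alternative that gave them a value, and the number of calls moved. The genes higher and lower were 138 and 41 by DESeq2, and 61 and 6 with only the 6 early tumors in the fit. Without the mean-dependent trend 16 were higher. With the second RAG1-/- tumor alone, where that lone tumor is assumed to vary like the other groups, 3 were higher and 0 lower. Leaving out 1 tumor at a time gave 13 to 20 higher and 1 to 5 lower. For the difference of the later and early pairs, DESeq2 called 36 higher and 22 lower, and leaving out 1 of the 12 tumors gave 0 to 4 higher and 0 to 2 lower. With the replicate number as a block, 38 genes were higher and 3 lower early, and 0 and 0 passed in the difference. Deviations of same-numbered tumors of both early groups correlated at 0.0584, 0.246 and -0.00482. Tumors of different numbers were not compared this way, so these values do not decide whether the numbers pair the tumors. All 39 called genes were called by DESeq2, 35 by edgeR, 29 under total scaling and 28 without a filter. Total scaling moved the median of all genes to -0.0863 on the log2 scale. Nnt, not called, ranged from -0.187 to 0.00101 with 1 tumor left out, reversed without the third RAG1-/- tumor, and stood at 0.0219 with the second alone. At this depth 11 of 22 T cell receptor genes and 16 of 24 B cell genes fell below the filter and were not tested.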
